A study of Mus musculus with 10 samples.

Results

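This account covers 8 genes of asparagine, proline and glutamine metabolism out of the 20206 genes listed in an RNA sequencing table of mouse embryonic stem cell (ESC) lines. They are Asns, Pycr1, Aldh18a1, Prodh, Glul, Got1, Got2 and Gpt2. They were chosen by name, as enzymes that make, interconvert or break down these amino acids, with earlier results of these data known. Each was read from the row of its symbol with the highest mean value. All 8 were in the table and all 8 were expressed well enough to be tested.

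RNA was sequenced from 10 undifferentiated wild-type C57BL/6 lines labelled male, 5 from blastocysts of mothers on a low protein diet (LPD, 9% casein) and 5 from blastocysts of mothers on a normal protein diet (NPD, 18% casein). The C57BL/6 mothers, aged 7 to 9 weeks, received the diet from the morning after mating until embryonic day 3.5. According to the study's methods, the lines came from different mothers and were grown without feeder fibroblasts for RNA. The lines themselves shared one culture medium, so the comparison asks what a line retained from the mother's diet and not how it responded to an altered medium. The LPD lines carry the numbers 1, 4, 6, 20 and 40, and the NPD lines the numbers 8, 15, 21, 36 and 51.

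Asparagine, proline and glutamine can all be built from intermediates of the tricarboxylic acid cycle by way of glutamate and aspartate. Asparagine synthetase (Asns) moves the amide group of glutamine onto aspartate, Aldh18a1 and Pycr1 convert glutamate into proline in mitochondria, Prodh starts proline oxidation, and glutamine synthetase (Glul) joins ammonia to glutamate. The transaminases Got1, Got2 and Gpt2 exchange amino groups between glutamate and aspartate or alanine. When an amino acid is scarce, uncharged tRNA activates the kinase Gcn2 (Eif2ak4), translation of the transcription factor Atf4 increases, and Atf4 induces a group of amino acid enzymes in which Asns is the standard example.

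The short DNA element through which Atf4 and its C/EBP partners act has the core TGATGNAA, where N is any base. It was searched on both strands in the RefSeq promoter windows on GRCm38, from 250 bases before to 50 bases after each gene's start. Of 32851 windows, 1304 (3.97%) held it, and 3 of the 8 enzymes did. The stretches around these 3 matches are shown because they mark the enzymes that carry the element's letters close to their start. They are written 5′ to 3′ on the strand of the gene, which is the minus strand for all 3, with the core in capitals. The Asns stretch is chr6:7693214-7693243, the Pycr1 stretch chr11:120643804-120643891 and the Got1 stretch chr19:43524660-43524747.
Asns: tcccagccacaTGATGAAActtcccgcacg
Pycr1: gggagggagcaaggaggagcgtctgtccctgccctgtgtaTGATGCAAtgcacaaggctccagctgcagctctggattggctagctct
Got1: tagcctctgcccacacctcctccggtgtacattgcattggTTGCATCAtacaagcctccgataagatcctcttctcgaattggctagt
The match began at position -23 from the RefSeq start in Asns, -103 in Pycr1 and -102 in Got1, where it lies on the opposite strand and reads as the reverse complement. The Asns stretch lies within the gene as GENCODE annotates it, whose start is further upstream than that of RefSeq. CACGTG, the E-box, occurred in 7.15% of windows and in 1 of the 8 enzymes, Aldh18a1. CCAAT or its reverse complement occurred in 37.4% of windows and in 3 enzymes, Glul, Pycr1 and Got1. None of the CCAAT matches overlapped a core in these 3 genes, and a match is a description of the letters, not evidence that a factor binds there.

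The values are normalized estimated counts, 1 per gene and line. In read equivalents, which are a line's total divided by what 1 read was worth, the NPD lines held 20274357 to 23184250 and the LPD lines 5855205 to 24291940, with line 4 the shallowest. LPD lines 4, 6 and 40 were each below every NPD line. The medians were 12311144 in LPD and 22194868 in NPD lines, so depth differed between the diets. All 10 markers of pluripotent cells were expressed in both diets, with a summed value of 106500 to 136959 in LPD and 100676 to 136913 in NPD lines. In LPD line 4 and NPD line 15 the summed value of 4 Y-linked genes was 701 and 152, against 3706 to 4305 in the other 8 lines. These 2 lines thus stood apart in a measure of their male label, but not in the same way. Over 334 X-linked genes the median log2 deviation from a gene's median was 0.487 in NPD line 15 and 0.001 in LPD line 4. In the other 8 lines it was -0.055 to 0.028. The sex of the 2 lines was not tested. The comparisons were repeated without both, and the main changes are given beside the result. Over the 14354 genes averaging at least 10, limma with Benjamini-Hochberg adjustment called 0 genes (0%) at an adjusted p under 0.1, and 721 genes (5.02%) had an unadjusted p under 0.05. Of these 721, 408 (2.84% of the genes tested) were higher in LPD. In 146 genes (1.02%) the LPD and NPD lines did not overlap.

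Measured against that background, the 8 enzymes gave no diet difference that passed adjustment. Asns alone had an unadjusted p under 0.05, 1 gene of 8 (12.5%) against 5.02% of all genes, and nothing more is read from a count of 1. The mean log2 value was higher in LPD for 6 of the 8 enzymes and lower for 2. Their median log2 fold change was 0.09, against 0.00 for all genes tested. In 0 of the 8 did the LPD and NPD lines separate completely, and adjusted p from limma lay between 0.982 and 0.999.

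**Figure D1:**
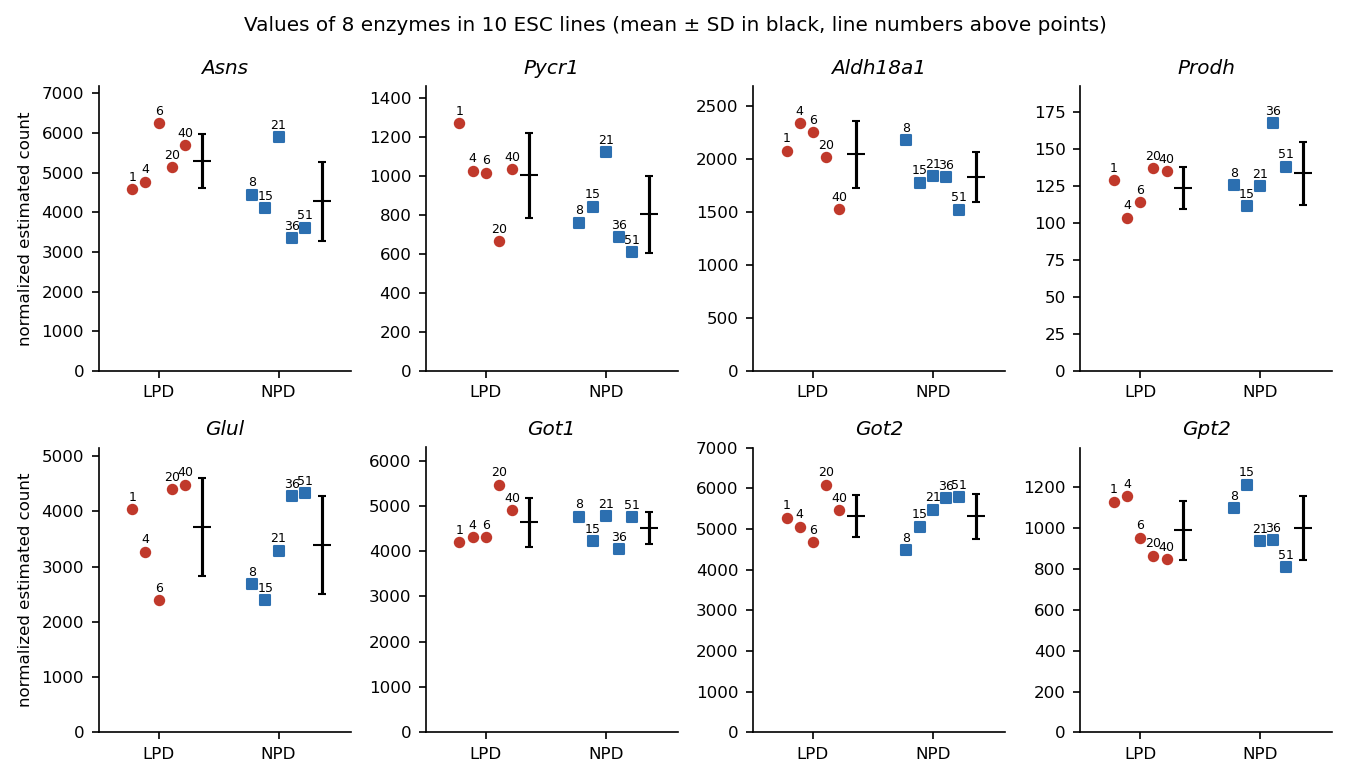
Normalized estimated count (vertical axis, from 0, no unit) of each enzyme in the 5 LPD lines (red circles) and 5 NPD lines (blue squares), with line numbers above the points and the mean ± SD in black. The groups overlap for all 8 enzymes, and for Asns 4 of the 5 NPD lines lie below every LPD line while NPD line 21, at 5888, lies among the LPD lines.

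Asns (ENSMUSG00000029752, chr6:7675169-7693254) was measured at 4579, 4773, 6249, 5144 and 5703 in LPD lines 1, 4, 6, 20 and 40. In NPD lines 8, 15, 21, 36 and 51 it was measured at 4450, 4110, 5888, 3347 and 3611. NPD line 21 was the exception among the controls: the other 4 NPD lines were below every LPD line, and LPD line 6 alone was above every NPD line. The mean was 5290 ± 686 (SD, n = 5) across the LPD lines and 4281 ± 995 (SD, n = 5) across the NPD lines. On the log2 scale the fold change was 0.32 (standard error, SE, 0.14, 95% confidence interval 0.01 to 0.64), which is 25.2% higher in LPD, with an unadjusted p of 0.0422 and an adjusted p of 0.982 from limma. A two-sided exact permutation test over all assignments of 5 and 5 lines, in which the smallest possible p is 0.00794, gave p = 0.0873.

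The Asns difference kept its direction under all 22 other settings and lines left out, but not its size. Without NPD line 21 the log2 fold change was 0.45 (unadjusted p = 0.00263, limma), and without NPD line 36 it was 0.24 (unadjusted p = 0.114, limma). In 11 of the 22 the unadjusted p was no longer under 0.05, among them the fit without LPD line 4 and NPD line 15 (log2 fold change 0.35, unadjusted p = 0.0662, limma). The share of the variance of Asns over the 10 lines that lay between the diets was 32.9%, the largest among the 8 enzymes.

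Asns opposes the asparaginases, which hydrolyse asparagine. Asrgl1, the more highly expressed asparaginase, had 733 ± 153 (SD, n = 5) across the LPD lines and 737 ± 93.1 (SD, n = 5) across the NPD lines. The log2 ratio of Asns to Asrgl1 was 2.87 ± 0.38 (SD, n = 5) across the LPD lines and 2.52 ± 0.16 (SD, n = 5) across the NPD lines. Its difference of 0.35 did not pass an exact permutation test (two-sided, p = 0.0873, Benjamini-Hochberg 0.476 over 6 ratios), although 3 LPD lines were above every NPD line.

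Of the 11 genes listed for asparagine and aspartate use, 5 had a higher and 6 a lower mean log2 value with LPD, and Asns was the 1 gene with an unadjusted p under 0.05. Nars, which charges the asparagine tRNA, had the next smallest p, with 8128 ± 1236 (SD, n = 5) across the LPD lines and 7125 ± 764 (SD, n = 5) across the NPD lines, a log2 fold change of 0.18 (adjusted p = 0.994 from limma, exact permutation test p = 0.159). The median of the list was -0.03.

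Pycr1 (ENSMUSG00000025140, chr11:120635712-120643769) makes the last step of proline synthesis in mitochondria. Its values were 1270, 1026, 1017, 664 and 1034 in LPD lines 1, 4, 6, 20 and 40, and 761, 842, 1122, 684 and 610 in NPD lines 8, 15, 21, 36 and 51. NPD line 21 lay among the 4 high LPD lines, and LPD line 20 among the low NPD lines, so the groups overlapped. The means were 1002 ± 217 (SD, n = 5) across the LPD lines and 804 ± 198 (SD, n = 5) across the NPD lines. A log2 fold change of 0.32 (SE 0.18, 95% confidence interval -0.08 to 0.72) was of the size of that of Asns, with a wider error, an unadjusted p of 0.107 and an adjusted p of 0.994 from limma (exact permutation test, two-sided, p = 0.190). Leaving out LPD line 20 raised it to 0.46 (unadjusted p = 0.0149, limma) and leaving out LPD line 1 lowered it to 0.23 (unadjusted p = 0.249, limma).

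Aldh18a1 (ENSMUSG00000025007, chr19:40550257-40588463) encodes the bifunctional enzyme that commits glutamate to proline and ornithine. LPD lines 1, 4, 6, 20 and 40 had 2081, 2341, 2257, 2022 and 1527, and NPD lines 8, 15, 21, 36 and 51 had 2179, 1778, 1842, 1832 and 1523. LPD line 40 stood low, next to NPD line 51, and NPD line 8 stood high, among the LPD lines. The means of 2046 ± 317 (SD, n = 5) and 1831 ± 234 (SD, n = 5) gave a log2 fold change of 0.15 (SE 0.13, 95% confidence interval -0.12 to 0.43), with an unadjusted p of 0.241 and an adjusted p of 0.994 from limma. Single lines moved it in either direction. Without LPD line 40 it was 0.26 with an unadjusted p of 0.0308 (limma), while it fell to 0.09 without NPD line 51, to 0.10 without LPD line 4 and to 0.09 without both LPD line 4 and NPD line 15 (unadjusted p = 0.494, 0.453 and 0.530, limma). The adjusted p of Aldh18a1 was never below 0.720 in any fit.

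Prodh (ENSMUSG00000003526, chr16:18060357-18090203), the mitochondrial proline dehydrogenase, works in the opposite direction. It was measured at 129, 104, 114, 137 and 135 in LPD lines 1, 4, 6, 20 and 40 and at 126, 112, 125, 168 and 138 in NPD lines 8, 15, 21, 36 and 51. NPD lines 36 and 51 were the highest and the groups overlapped elsewhere. With 124 ± 14.4 (SD, n = 5) across the LPD lines and 134 ± 21.2 (SD, n = 5) across the NPD lines, the log2 fold change was -0.10 (SE 0.16, 95% confidence interval -0.45 to 0.25, unadjusted p = 0.536, adjusted p = 0.994, limma), and with depth as a covariate it was 0.01. Prodh was the least abundant of the 8 enzymes, represented by 36 read equivalents in LPD line 4 and 82 to 232 in the other lines. Its row is identical to that of 1 other identifier, so the value may not be that of Prodh alone. Whether reads are shared between them was not tested. In the annotation Prodh also overlaps Dgcr6 and Glul overlaps Teddm2, each on the opposite strand, and Aldh18a1 overlaps Gm15801 on its own strand, so part of the reads of these 3 enzymes could belong to either gene.

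Proline synthesis set against proline oxidation leaned the same way without passing a test. The log2 ratio of Pycr1 to Prodh was 2.98 ± 0.43 (SD, n = 5) across the LPD lines and 2.56 ± 0.49 (SD, n = 5) across the NPD lines, a difference of 0.42 (exact permutation test, two-sided, p = 0.159, Benjamini-Hochberg 0.476 over 6 ratios). That of Aldh18a1 to Aldh4a1, the enzyme of the next step of proline oxidation, differed by 0.04 (exact permutation test, p = 0.706), and by -0.04 without LPD line 4 and NPD line 15 (exact permutation test, p = 0.600).

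Over the proline and ornithine list 12 of 14 genes could be tested, 8 lying higher and 4 lower with LPD, and an unadjusted p under 0.05 was found for 0 of them (5.02% of all genes). The median log2 fold change of the 12 was 0.12.

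**Figure D2:**
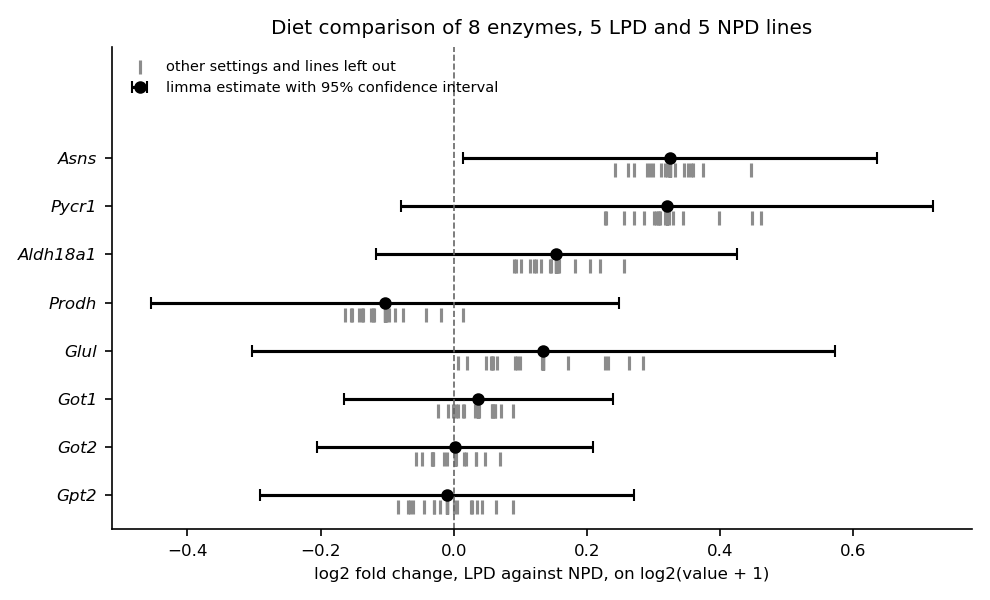
Log2 fold change of each enzyme, LPD against NPD on log2(value + 1) (horizontal axis), as the limma estimate with its 95% confidence interval (black) and the estimates under 22 other settings and left-out lines (grey ticks). Asns, at 0.32, is the one enzyme whose interval leaves out 0, and the ticks of Got1, Got2 and Gpt2 lie on both sides of 0.

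Glul (ENSMUSG00000026473, chr1:153899944-153909723), the glutamine synthetase, did not differ between the diets beyond its spread. It was measured at 4037, 3272, 2390, 4396 and 4483 in LPD lines 1, 4, 6, 20 and 40 and at 2679, 2397, 3288, 4274 and 4327 in NPD lines 8, 15, 21, 36 and 51. Each diet had low lines (LPD line 6, NPD lines 8 and 15) and high lines (LPD lines 20 and 40, NPD lines 36 and 51), and the ranges coincided almost fully. The mean of 3715 ± 882 (SD, n = 5) across the LPD lines and 3393 ± 889 (SD, n = 5) across the NPD lines gave a log2 fold change of 0.13 (SE 0.20, 95% confidence interval -0.30 to 0.57), with an unadjusted p of 0.518 and an adjusted p of 0.994 from limma. With 1 line left out it ranged from 0.02 (without NPD line 15) to 0.28 (without LPD line 6). Leaving out LPD line 20 or 40 or NPD line 8, 36 or 51 also moved it by over 1.5 times, and without both LPD line 4 and NPD line 15 it was 0.06. Between the lowest and the highest line Glul varied 1.88-fold, and 83.9% of the 10455 genes averaging 100 or more had a smaller SD over the 10 lines.

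Glul varied together with the markers of primitive endoderm, a lineage that ESC cultures can give rise to. The summed value of 9 such markers (Gata4, Gata6, Sox17, Sox7, Foxa2, Dab2, Pdgfra, Cubn and Amn) ranged from 767 to 7431 in LPD lines and from 524 to 8070 in NPD lines. It was lowest in NPD lines 15 and 8 and LPD line 6, at 524, 1605 and 767, which were also the 3 lines with the lowest Glul. Over the 10 lines Glul correlated with the mean log2 value of these markers at r = 0.88 (permutation test, p = 0.00076, Benjamini-Hochberg 0.0243 over 32 pairs of enzymes and marker lists) and rho = 0.67 (permutation test, p = 0.0394, Benjamini-Hochberg 0.427). Centred within each diet, r was 0.87. Without LPD line 6 and NPD line 15, the 2 lines farthest from the median of the markers, r was 0.75 (exact permutation test, p = 0.0353, Benjamini-Hochberg 0.569), so the relation rests in part on these lines. All 9 markers had a higher mean log2 value in LPD and 0 of 9 had an unadjusted p under 0.05. On the untransformed scale the LPD mean was not higher for Gata6 (321.35 against 321.45) or Dab2 (823 against 826). NPD line 15 weighed on this direction, with a mean log2 of the markers of 5.05. It was 7.00 to 9.09 in the other NPD lines and 6.23 to 9.12 in the LPD lines. The direction of the markers without LPD line 4 and NPD line 15 was not tested. With the mean of the 9 markers as a covariate the diet difference in Glul was 0.01. In bulk RNA, fewer cells of a type and less RNA per cell cannot be told apart.

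Fibroblast markers varied in the opposite sense. Their summed value was 329 to 3651 in LPD lines and 405 to 5908 in NPD lines, highest in NPD line 15, LPD line 6 and NPD line 8, and of the 10 markers 0 to 5 were at 0 in a line. Glul correlated with them at r = -0.81 (permutation test, p = 0.0047, Benjamini-Hochberg 0.0501), rho = -0.65 (permutation test, p = 0.0495, Benjamini-Hochberg 0.427), and r was -0.49 without LPD line 6 and NPD line 15. With the 7 trophectoderm markers r was -0.83 (permutation test, p = 0.00466, Benjamini-Hochberg 0.0501) and rho -0.77 (permutation test, p = 0.0124, Benjamini-Hochberg 0.396), and without LPD line 6 and NPD line 8 r was -0.73. The part of either cell type in the Glul values was not tested. With the endoderm markers Asns gave r = -0.13 (permutation test, p = 0.713, Benjamini-Hochberg 0.796) and rho = -0.22 (permutation test, p = 0.535). Pycr1 gave r = 0.08 (permutation test, p = 0.832, Benjamini-Hochberg 0.859) and rho = 0.26 (permutation test, p = 0.471), and neither relation passed without LPD line 6 and NPD line 15, at r = -0.17 and 0.30. Without LPD line 4 and NPD line 15 the endoderm markers gave r = 0.88 with Glul and -0.45 with Asns (exact permutation test, p = 0.00905 and 0.257).

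**Figure D3:**
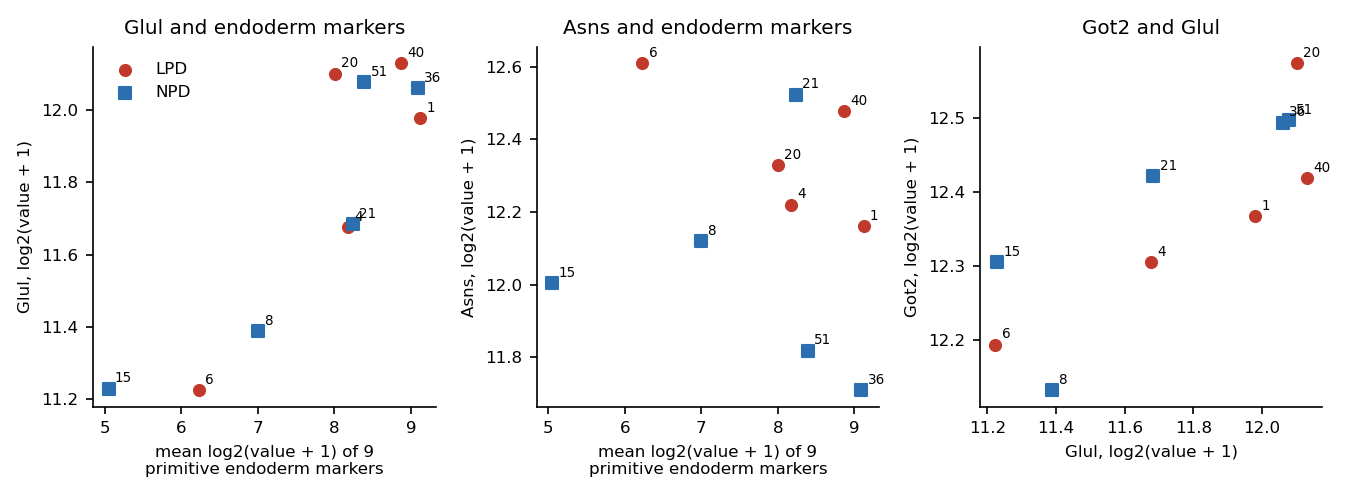
Left and middle, Glul and Asns on log2(value + 1) (vertical axes) against the mean log2(value + 1) of 9 primitive endoderm markers (horizontal axes). Right, Got2 against Glul on the same scale. Each point is 1 line with its number, LPD as red circles and NPD as blue squares; Glul rises with the markers in both diets (r = 0.88), Asns shows no such rise (r = -0.13), and Got2 rises with Glul (r = 0.83).

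Of the 17 genes of glutamine and glutamate use, 10 lay higher and 7 lower with LPD, the unadjusted p was under 0.05 for 0, and the median was 0.01. The 2 with the smallest p were Pfas and Slc38a2. Pfas, which uses the amide of glutamine in purine synthesis, had 3285 ± 603 (SD, n = 5) across the LPD lines and 3731 ± 231 (SD, n = 5) across the NPD lines, a log2 fold change of -0.20 (adjusted p = 0.994 from limma, exact permutation test p = 0.135). Slc38a2, a transporter of glutamine and other small neutral amino acids, had 5291 ± 1139 (SD, n = 5) and 4418 ± 602 (SD, n = 5), a log2 fold change of 0.24 (adjusted p = 0.994 from limma, exact permutation test p = 0.222).

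The aspartate transaminases were the steadiest of the enzymes. Got1 (ENSMUSG00000025190, chr19:43499752-43524605), the cytosolic form, had 4197, 4316, 4307, 5468 and 4907 in LPD lines 1, 4, 6, 20 and 40 and 4762, 4216, 4773, 4037 and 4757 in NPD lines 8, 15, 21, 36 and 51. Got2 (ENSMUSG00000031672, chr8:95864134-95888547), the mitochondrial form, had 5283, 5061, 4685, 6094 and 5474 in the same LPD lines and 4488, 5060, 5483, 5765 and 5779 in the same NPD lines. LPD line 20 was the highest for both genes, and otherwise LPD and NPD lines were mixed. The means of Got1 were 4639 ± 540 (SD, n = 5) across the LPD lines and 4509 ± 355 (SD, n = 5) across the NPD lines, a log2 fold change of 0.04 (95% confidence interval -0.16 to 0.24, adjusted p = 0.997, limma). For Got2 they were 5320 ± 523 (SD, n = 5) and 5315 ± 547 (SD, n = 5), a log2 fold change of 0.00 (95% confidence interval -0.21 to 0.21, adjusted p = 0.999, limma). Of the same 10455 genes, 14.8% had a smaller SD over the lines than Got1 and 16.5% a smaller one than Got2. Their confidence intervals were the narrowest of the 8.

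Gpt2 (ENSMUSG00000031700, chr8:85492576-85527560), the mitochondrial alanine transaminase, was measured at 1130, 1155, 954, 866 and 849 in LPD lines 1, 4, 6, 20 and 40. In NPD lines 8, 15, 21, 36 and 51 it was measured at 1098, 1213, 937, 940 and 809. LPD lines 1 and 4 and NPD lines 8 and 15 were the high lines. The means of 991 ± 144 (SD, n = 5) and 999 ± 157 (SD, n = 5) differed by a log2 fold change of -0.01 (95% confidence interval -0.29 to 0.27, adjusted p = 0.997, limma). The cytosolic form Gpt was far lower, at 75.7 ± 13.4 (SD, n = 5) across the LPD lines and 68.6 ± 9.97 (SD, n = 5) across the NPD lines, and the log2 ratio of Gpt2 to Gpt differed by -0.15 (exact permutation test, two-sided, p = 0.413), or by -0.26 without LPD line 4 and NPD line 15 (exact permutation test, p = 0.114). The log2 ratio of Got1 to Got2 differed by 0.03 (exact permutation test, two-sided, p = 0.738).

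The transaminases were listed with the malate-aspartate shuttle, which carries reducing equivalents into mitochondria and of which Got1 and Got2 are part. Of 16 genes 15 could be tested, 8 lay higher and 7 lower with LPD, and the median was 0.00. Psat1, the transaminase of serine synthesis, was the 1 with an unadjusted p under 0.05. It had 4883, 5122, 5042, 5299 and 4507 in LPD lines 1, 4, 6, 20 and 40 and 4433, 4912, 4842, 3527 and 3575 in NPD lines 8, 15, 21, 36 and 51, so that 3 LPD lines were above every NPD line. Its log2 fold change was 0.24 (unadjusted p = 0.0471, adjusted p = 0.987, limma), and a two-sided exact permutation test gave p = 0.0556. The unadjusted p was no longer under 0.05 in 11 of 22 other settings, among them rescaling to the same total (0.0766), quantile normalization (0.0957) and the fit without NPD line 36 or without NPD line 51 (both 0.129, limma). Slc25a11, the carrier of 2-oxoglutarate and malate, had 832 ± 71.1 (SD, n = 5) across the LPD lines and 907 ± 49.3 (SD, n = 5) across the NPD lines, a log2 fold change of -0.13 (adjusted p = 0.994 from limma, exact permutation test p = 0.0873).

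Across the 4 metabolic lists 54 genes were tested, each counted once. Of these, 30 lay higher and 24 lower with LPD, and 2 (3.70%), Asns and Psat1, had an unadjusted p under 0.05, against 5.02% of all genes. After rescaling to the same total 22 of the 54 lay higher, and the number under 0.05 was 0 to 4 over the other settings and lines left out. The regulators of the amino acid response gave another count. They were listed with earlier results of these data known, and the study had already reported a higher Atf4 transcript in LPD lines. The study tested single transcripts, where Atf4 passed its adjustment, and also measured a rise by qRT-PCR. The values here are per gene and tested with limma. The count of these regulators is thus a description and not independent support. All 11 had a mean log2 value that was higher in LPD, with a median of 0.39, and 5 of 11 had an unadjusted p under 0.05, against 2.84% of all genes in that direction. These were Atf3, Atf4, Chac1, Sesn2 and Trib3, with log2 fold changes of 2.03, 0.48, 1.09, 0.38 and 0.39 and adjusted p of 0.290, 0.435, 0.551, 0.860 and 0.952 from limma, and Eif2ak4, which senses uncharged tRNA, was at 0.00. After rescaling to the same total 9 of the 11 were higher, and 10 with quantile normalization. Atf3, Atf4 and Chac1 stayed under an unadjusted p of 0.05 in all 22 other settings and lines left out, Sesn2 in 21 and Trib3 in 14. Without LPD line 4 and NPD line 15 the count was 3 of 11, with Sesn2 at an unadjusted p of 0.0945 and Trib3 at 0.108 (limma). Trib3 was also above 0.05 with depth as a covariate and without LPD line 4, 6 or 20 or NPD line 15, 36 or 51. Without LPD line 40 the adjusted p was 0.00467 for Atf3 and 0.0943 for each of Atf4, Chac1 and Sesn2 (limma). Between Asns and these regulators the order of lines was not the same: Asns was at 5703 in LPD line 40, its second highest LPD value, while Atf3, at 94.9, and Chac1, at 311, had their lowest LPD value there.

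**Figure D4:**
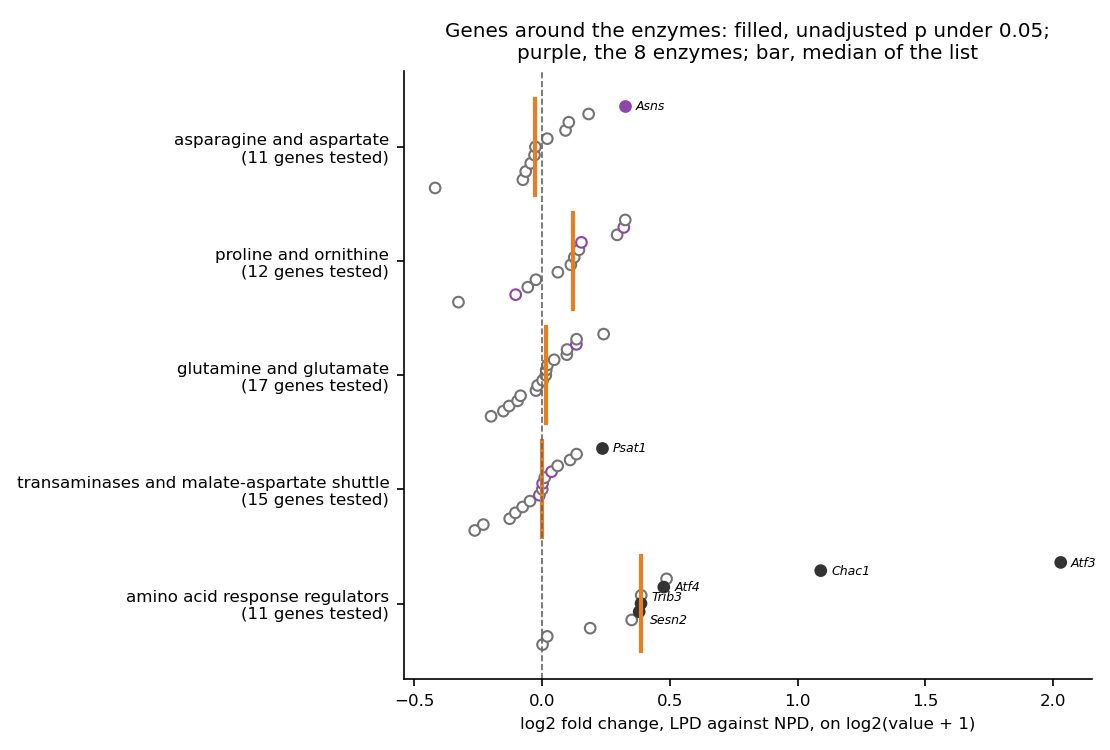
Log2 fold change, LPD against NPD on log2(value + 1) (horizontal axis), of every tested gene of 5 lists, with filled points for an unadjusted limma p under 0.05, purple for the 8 enzymes and an orange bar for the median of a list. The medians of the 4 metabolic lists lie between -0.03 and 0.12 and that of the regulators at 0.39.

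Atf4 itself was compared with each enzyme over the 10 lines. Aldh18a1 had the highest correlation, at r = 0.65 (permutation test, p = 0.0444, Benjamini-Hochberg 0.355 over 8 pairs) and rho = 0.71 (permutation test, p = 0.0266, Benjamini-Hochberg 0.213). Without LPD line 40 and NPD line 51 r was 0.77 (exact permutation test, p = 0.0323, Benjamini-Hochberg 0.259), and without LPD line 4 and NPD line 15 it was 0.58 (exact permutation test, p = 0.132). For Asns r was 0.54 (permutation test, p = 0.111, Benjamini-Hochberg 0.444) and rho 0.52 (permutation test, p = 0.133, Benjamini-Hochberg 0.532). The Asns value was 0.36 without LPD line 6 and NPD line 36, and 0.14 when both genes were centred within each diet. None of the 8 pairs passed adjustment.

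Among the 28 pairs of enzymes r lay between -0.62 and 0.83, with 12 positive, 2 at an unadjusted p under 0.05 and 0 after adjustment. Glul and Got2 were the most alike, at r = 0.83 (permutation test, p = 0.00274, Benjamini-Hochberg 0.0767) and rho = 0.82 (permutation test, p = 0.00603, Benjamini-Hochberg 0.125), and r was 0.86 without LPD line 6 and NPD line 15. Prodh and Glul followed, at r = 0.70 (permutation test, p = 0.0222, Benjamini-Hochberg 0.258) and rho = 0.77 (permutation test, p = 0.0123, Benjamini-Hochberg 0.125). Without LPD line 4 and NPD line 36, the lines farthest from the median of Prodh, r was 0.93 (exact permutation test, p = 0.000595, Benjamini-Hochberg 0.0167). The lines farthest from the median of Glul were not left out for this pair. Asns and Pycr1 gave r = 0.62 (permutation test, p = 0.058, Benjamini-Hochberg 0.258), rho = 0.54 (permutation test, p = 0.114, Benjamini-Hochberg 0.267) and r = 0.54 without LPD line 6 and NPD line 36, and NPD line 21 was the second highest line for both. Got2 and Gpt2 lay at r = -0.62 (permutation test, p = 0.0563, Benjamini-Hochberg 0.258) and rho = -0.71 (permutation test, p = 0.0268, Benjamini-Hochberg 0.125), with r = -0.84 without LPD line 6 and NPD line 8.

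For each enzyme the 3 genes with the most similar profile were taken from 10324 genes with a mean of at least 100, by Pearson's r over the 10 lines. These are the top of a long ranking over few lines and are given as a description. The gene most like Glul was Sox7, one of the primitive endoderm markers above (r = 0.96, rho = 0.88), followed by Exosc3 (0.95) and Znhit3 (0.94). The 3 closest to Asns were Lonrf1 (r = 0.91), Scpep1 (0.90) and Sik1 (0.88), and those closest to Pycr1 were Prpf18 (0.96), Clybl (0.95) and Pcgf1 (0.95). Aldh18a1 was most like Usp40 (0.92), Itgb4 (0.92) and Mob1a (0.91), and Prodh most like Rpap3 (0.89), Oaz2 (0.89) and Dnajc17 (0.88). For the transaminases the closest genes were Pdlim1 (0.93), Traf4 (0.93) and Akr1a1 (0.93) for Got1, Pald1 (0.93), Brsk1 (0.93) and Mrpl43 (0.92) for Got2, and Dzip1 (0.95), Sbk1 (0.94) and Herc2 (0.94) for Gpt2.

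Levels of different enzymes were compared per kilobase of the longest coding transcript. In normalized estimated count per kilobase, Asns had 2374 ± 479 (SD, n = 10), Got1 2223 ± 212, Got2 2102 ± 199, Glul 1273 ± 305, Aldh18a1 550 ± 81.1, Pycr1 310 ± 76.1, Gpt2 273 ± 39.1 and Prodh 54.0 ± 7.48. Asns exceeded Got1 in 5 of 10 lines, Got1 exceeded Got2 in 8 and Pycr1 exceeded Gpt2 in 5, so these neighbours were not separated beyond the spread between lines. The other 4 steps of the order held in all 10 lines by this length. Per kilobase of coding sequence alone the order of the upper 4 changed to Got2 (4122), Got1 (3692), Glul (3176) and Asns (2843), so the place of Asns at the top depends on the length used. By that length Pycr1 (974) also lay above Aldh18a1 (813), in 7 of 10 lines, the reverse of their order per kilobase of transcript. Prodh was lowest by either length.

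**Figure D5:**
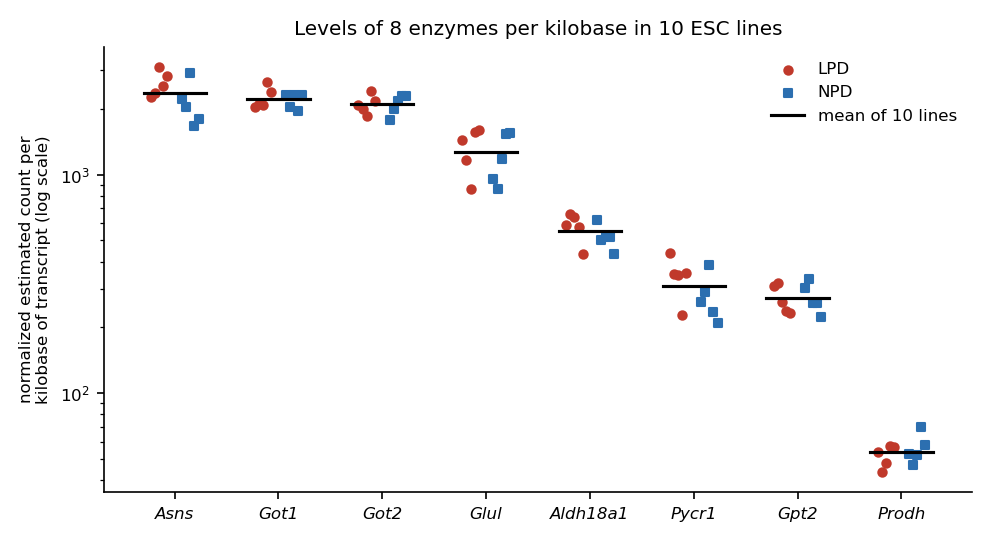
Normalized estimated count per kilobase of the longest coding transcript (vertical axis, log scale) of each enzyme in 5 LPD (red circles) and 5 NPD (blue squares) lines, with the mean of the 10 lines as a black bar. Asns, Got1 and Got2 form the upper group with means of 2374, 2223 and 2102, and Prodh lies lowest at 54.0.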

How the data were processed

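The authors trimmed reads with cutadapt, quantified them with Salmon on GRCm38 transcripts (Ensembl 88) and tested transcripts with Sleuth 0.30.0, per the methods and the submitters' processing notes. They deposited a normalized signal per gene and line, an estimated count whose scaling between lines was done by the authors. How transcripts were summed to genes is not given in the sources used here. The values are not whole reads, so no count model was used. Of 20206 rows, 19891 matched GENCODE M21 on GRCm38, 540 were identical to another row, and 0 columns were without a line.

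Each line was 1 replicate. Values were transformed as log2(value + 1), which understates the change of low genes. A mean of at least 10 was required, which left 14354 genes for limma 3.58.1 (R 4.3.3). Its eBayes step used a mean-variance trend without covariates, and p was adjusted over all 14354 by Benjamini-Hochberg, at 0.1. Single values were also tested by two-sided exact permutation, and correlations by 100000 permutations, or exactly over 8 lines, in Python 3.11.15. The value of 1 read was estimated from low values, counted as whole multiples within 0.15. It gives relative depth only. The tests were checked on simulated data. The changes planted there for limma were larger than those of the 8 enzymes, so detection of changes of their size was not checked.

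The genes named were the 8 enzymes, genes of the lists with an unadjusted p under 0.05 or the 2 smallest p, Atf4, the partners in the ratios and the 3 most alike genes. A gene and a ratio that this rule names are not reported here. In sentences that print it, the unadjusted p is that of limma. Members and lists were chosen with earlier results of these data known. Alternatives were pseudocounts of 0.1 and 10, no filter or a minimum mean of 100, equal totals for all lines, quantile normalization, other variance models, a depth covariate, exact Mann-Whitney tests, coding length, and each line left out. Chosen after seeing the data were the fits, ratios and correlations without LPD line 4 and NPD line 15, the counts per list in each setting, the primitive endoderm covariate and the marker correlations.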

Additional observations from a re-analysis of the deposited data

How the results depend on the processing

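The adjusted p of every enzyme stayed above 0.1 in all 22 alternatives, with a lowest value of 0.720. Over all genes the count with an adjusted p under 0.1 was 0, against 1 with array weights, 3 with the primitive endoderm covariate and 0 to 40 with 1 line left out (40 without LPD line 40). The count with an unadjusted p under 0.05 was 721, and 549 to 1021 otherwise. Rescaling to the same total gave 295 higher and 439 lower genes (40.2% higher) against 408 and 313 (56.6%), and the median of all genes moved from 0.00 to -0.03. The number of enzymes with an unadjusted p under 0.05 was 1, against 0 after rescaling, without the trend, with array weights, with depth as a covariate or without LPD line 4 and NPD line 15, and 0 to 2 with 1 line left out. The cause of these differences was not tested.

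Asns, Pycr1, Aldh18a1 and Glul kept their direction throughout. The sign changed for Prodh with depth as a covariate (0.013), for Got1 with quantile normalization (-0.0092) and for Got2 after rescaling (-0.032), with quantile normalization (-0.031), array weights (-0.033) and the endoderm covariate (-0.031). For Gpt2 it changed with array weights (0.089), without LPD line 4 and NPD line 15 (0.0044) and with the endoderm covariate (0.026). With 1 line left out Got1 ranged from -0.0241 to 0.0713, Got2 from -0.0573 to 0.0466 and Gpt2 from -0.0831 to 0.0628, the log2 ratio of Aldh18a1 to Aldh4a1 from -0.0202 to 0.0913 and that of Got1 to Got2 from -0.0349 to 0.115. Pairs were also compared without the 2 lines farthest from the median of the gene named first, and the extremes of the other gene were not left out. In that comparison 1 pair of enzymes passed adjustment (Prodh and Glul). There r changed sign for Asns with Prodh (0.0693), Glul (0.21) and Got2 (0.17), for Pycr1 with Glul (0.17), Got1 (0.21), Got2 (0.09) and Gpt2 (-0.0299), and for Aldh18a1 with Got1 (0.0683). Without LPD line 4 and NPD line 15 the sign changed for the ratio of Aldh18a1 to Aldh4a1 (-0.0402) and for r of Asns with Gpt2 (0.013) and of Prodh with Got1 (-0.185). The exact Mann-Whitney test left every enzyme above 0.05. No paired analysis was possible because the line numbers are not shared between diets. Depth limits Prodh most, at 36 read equivalents in LPD line 4.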
